A study of Mus musculus with 2 samples.

Results

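The aldo-keto reductase genes described here are the 10 family members Akr1b3, Akr1b7, Akr1b8, Akr1c12, Akr1c13, Akr1c14, Akr1c18, Akr1c19, Akr1c20 and Akr1e1, out of 30011 genes on the array. They were found by the gene name that the scanner output gives each probe, and they hold 12 of 39429 probes. The genes were picked with their values on these arrays already known, so their ratios are a description and carry no test.

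RNA of mouse ureters at E16.5 was compared to learn which transcripts change when Pparg, the gene of a ligand-dependent nuclear receptor, is deleted from the ureteric epithelium. Every embryo was of strain NMRI, and the cKO embryos were Pax2-cre/+; Pparg(fl/fl), a genotype that removes exons 2 and 3 wherever the cre line has been active, in the nephric duct, the ureteric epithelium and the collecting ducts of the kidney. Control embryos are labelled Pparg(fl/?), with the second allele not stated and no cre named. The study's methods give littermates without the cre as controls. Ureters were pooled by sex, and array 1 held a female Pparg-cKO and a female control pool and array 2 the male pools, so that each genotype had 2 pools and each sex 1 array. The cre acts in the epithelium alone among the layers of the ureter, while the RNA came from the whole organ, and fewer cells of a type cannot be told apart from less RNA per cell.

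The direction between the genotypes could not be settled from the labels alone. The RNA carrying AlexaFluor647 in the female pools and AlexaFluor555 in the male pools, called RNA A, is control by the dye labels. The study's text makes it Pparg-cKO, since its in situ hybridization found Krt20, Hsd17b2 and Upk1a reduced or absent in Pparg-cKO ureters. Here all of these were brighter in RNA B on each array. Log2 ratios on arrays 1 and 2 were -1.96 and -0.92 for Krt20, -2.12 and -2.25 for Hsd17b2, and -1.42 and -1.22 for Upk1a. All ratios are therefore log2 of RNA A over RNA B, and the sign turns if they are read the other way round. The authors' deposited signed fold changes ran as RNA A over RNA B on both arrays (Pearson's r = 0.997 across 18716 probes on array 1 and across 18969 on array 2). Both samples are titled Pparg-cKO vs control, and fold changes read in that order make RNA A the Pparg-cKO, against the dye labels. Pparg itself had 1 probe (mm9, chr6:115440213-115440272) with signals of 11295 in RNA A against 7430 in RNA B in the female pools, and of 12888 against 7872 in the male pools. The sources used here do not place this probe in the deleted exons, so it does not check the labels. Over the 4 channels the uroplakin gene Upk3a had signals of 30472 to 51987 and the smooth muscle gene Acta2 of 39606 to 72555, so epithelium and muscle of the ureter were present in every pool.

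Aldo-keto reductases are soluble enzymes that use NADPH or NADH to reduce aldehydes and ketones to alcohols. Members of the AKR1B group reduce sugars and lipid aldehydes, and many of the AKR1C group act as hydroxysteroid dehydrogenases that switch steroid hormones, prostaglandins and bile acids between active and inactive forms. In mice the AKR1B genes lie side by side on chromosome 6 and the AKR1C genes, with Akr1e1, on chromosome 13, each cluster having arisen by gene duplication.

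Since the genes are duplicates, each value depends on whether its probe tells near relatives apart. The first 30 bases of the 60-base probes are given for Akr1c19, Akr1e1 and Akr1b3, and for Akr1b7 and Akr1c18, which turned most between arrays, to show what was measured.
Akr1c19 (mm9, chr13:4247522-4247581, plus strand): ccagtccggaacataagtcactacattttc
Akr1e1 (mm9, chr13:4592152-4592211, minus strand): gcctttctggcttctattttcagaagtgaa
Akr1b3 (mm9, chr6:34253930-34253982, minus strand): ttacccccctggaggactttaacacaagta
Akr1b7 (mm9, chr6:34372905-34372964, plus strand): gagatccgtgcatgatagattccttcgtct
Akr1c18 (mm9, chr13:4131895-4131954, minus strand): ccaatcactgcttagcaactcacccccagt
The longest run of identical bases that any member's probe shared with the probe of another family gene was 11 bases, between Akr1c20 and Akr1c6, followed by 10 bases between Akr1c19 and Akr1cl, and by 9 bases or fewer for all other pairs. Probes were compared with each other, and full transcripts were not used here. These runs therefore do not show whether a probe tells the transcripts of near relatives apart. Each probe was printed in 4 spots on each array. Spots marked as outliers were left out, which removed 1 spot each from the probes of Akr1b7, Akr1c13 and Akr1c19 on array 1. A probe counted as well above background if a share of 0.5 or more of its kept spots did so in the scanner output.

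Of the 10 genes, 9 were detected, meaning that 1 RNA or both stood well above background in the female and in the male pools. Akr1c20 was not: its probes had signals of 2.45 to 4.22 in all channels, and no fold is given for it. The plot of signals in the 4 channels shows the remaining genes, whose signals may be compared between RNAs and arrays but not between genes, since probes differ in how brightly they bind.

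Akr1e1 and Akr1c19 were the members brighter in RNA A by at least 1.5-fold on both arrays. Akr1e1 encodes an anhydrofructose reductase and lies at the end of the chromosome 13 cluster. Its signals were 953 in RNA A against 608 in RNA B in the female pools, and 848 against 519 in the male pools. The ratio was thus 1.57-fold on array 1 and 1.63-fold on array 2, a log2 ratio of 0.68 ± 0.04 (SD, n = 2 arrays). Every spot showed it, with log2 ratios from 0.63 to 0.66 on array 1 and from 0.61 to 0.80 on array 2.

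Akr1c19 is an AKR1C member that lies between Akr1c13 and Akr1c12. Its signals were 670 in RNA A against 423 in RNA B in the female pools, and 628 against 406 in the male pools. Its ratio was 1.59-fold on array 1 and 1.55-fold on array 2, a log2 ratio of 0.65 ± 0.03 (SD, n = 2 arrays). Kept spots ranged from 0.64 to 0.68 on array 1 and from 0.51 to 0.73 on array 2, so that 1 spot on array 2 lay below the threshold by itself. In both genes the lowest RNA A signal was higher than the highest RNA B signal. A ratio of 1.5-fold on each array makes this likely, and the share of all genes with it was not counted.

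The filter behind these calls asked each array for a ratio of 1.5-fold or more, with equal sign, and for an intensity of 100 or more in whichever RNA was brighter. Over all 29982 genes with a kept spot on both arrays, 47 genes (0.157%) passed it towards RNA A, 69 (0.23%) towards RNA B, and 129 (0.43%) reached those limits with opposite signs. Of the 10 members, 2 passed towards RNA A and 0 towards RNA B or with opposite signs. With 1 array alone, 1.07% of all genes passed towards RNA A and 2.12% towards RNA B in the female pools, and 1% and 1.63% did so in the male pools, against 2 and 0 members on array 1 and 2 and 2 members on array 2. The genes were chosen on this contrast, so nothing is read from that share. Akr1e1 and Akr1c19 lay just inside the threshold: both dropped out at 2-fold, and with normexp background correction and loess only Akr1c19 passed. Without probes that had lost a spot, Akr1e1 passed and Akr1c19 had no value, since its probe was left out. Markers of mast cells and leukocytes were also brighter in RNA A, on both arrays for 4 of 6 genes, with a summed signal of 4150 in RNA A against 3315 in RNA B in the female pools, and of 4244 against 3567 in the male pools. Within that list Cpa3, a mast cell protease, had signals of 795 against 281 in the female and of 651 against 288 in the male pools. It was the 1 gene of the list past the filter. Csf1r, Cd68 and Kit had mean log2 ratios of 0.15, 0.14 and 0.09, and Ptprc turned between arrays. The median log2 ratio over the 5 of these markers well above background was 0.14. The part of such cells in the ratios of Akr1e1 and Akr1c19 was not tested.

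**Figure D1:**
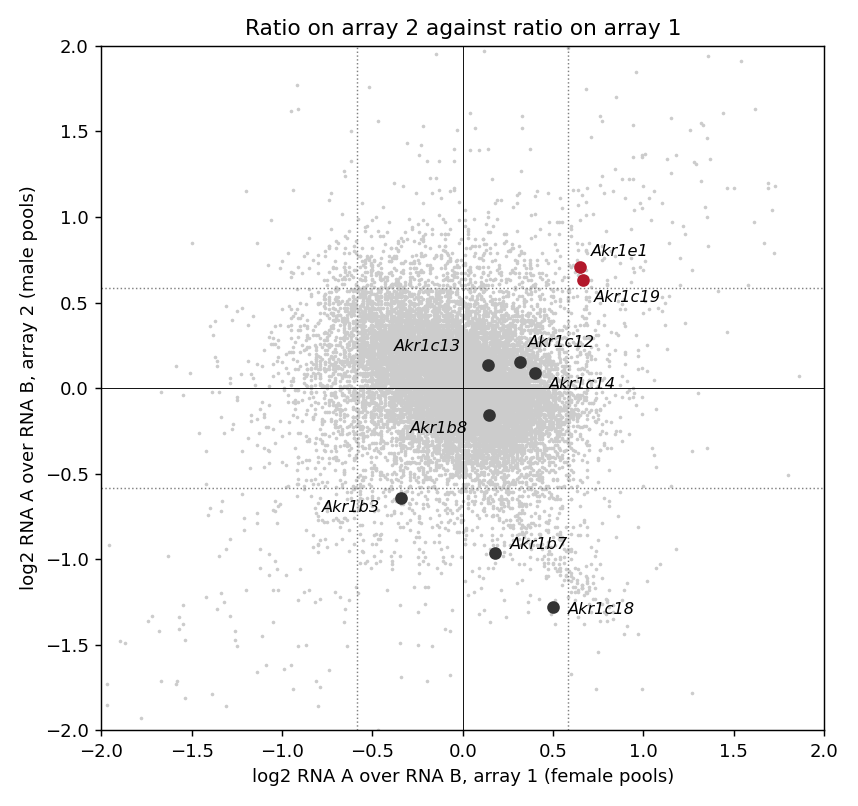
Log2 ratio of RNA A over RNA B on array 2 (male pools) against array 1 (female pools) for 21429 genes well above background (grey) and the 9 detected aldo-keto reductases (red, past the 1.5-fold filter; black, others), with dotted lines at 1.5-fold and 35 genes outside the axes. Akr1e1 and Akr1c19 lie in the upper right corner at 1.55-fold to 1.63-fold on both arrays, and Akr1b7 and Akr1c18 lie far below 0 on array 2 and above 0 on array 1.

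For Akr1c12, Akr1c13 and Akr1c14, RNA A exceeded RNA B on each array by less than 1.5-fold. Akr1c14, a hydroxysteroid dehydrogenase, had signals of 1311 in RNA A against 995 in RNA B in the female pools, and of 1297 against 1218 in the male pools. Its log2 ratios were 0.40 and 0.09 (mean 0.24 ± 0.22, SD, n = 2), a smaller difference on the male array. Akr1c13 had signals of 464 against 422 in the female and of 433 against 395 in the male pools. Its log2 ratios of 0.14 and 0.14 were nearly equal on the arrays. Akr1c12 had signals of 117 against 93.6 in the female and of 117 against 105 in the male pools, close to the intensity threshold, and a log2 ratio of 0.24 ± 0.12 (SD, n = 2).

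RNA A was the brighter on both arrays for 5 of the 9 detected members and RNA B for 1, and 3 turned between arrays. Among all 21429 genes well above background, the ratio pointed towards RNA A on each array in 21.6%, towards RNA B on each array in 17.4%, and turned in 61%. The median log2 ratio of the 9 genes was 0.14, against 0.01 over all those genes. Since the genes were chosen on these ratios, these values only place them.

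Akr1b3, aldose reductase, which turns glucose into sorbitol, ran the other way. Its signals were 11723 in RNA A against 14846 in RNA B in the female pools, and 11642 against 18143 in the male pools. RNA B was brighter by 1.27-fold on array 1 and by 1.56-fold on array 2, a log2 ratio of -0.49 ± 0.21 (SD, n = 2). A second probe within the gene (mm9, chr6:34260573-34260632) had signals of 4673 against 5789 in the female and of 4332 against 8016 in the male pools. Both probes thus placed RNA B above RNA A on each array and gave the larger difference on the male array, with log2 ratios of -0.31 and -0.89 for the second. Akr1b3 passed 1.5-fold on array 2 and not on array 1, and 1.63% of all genes passed on array 2 in that direction, those that also passed on array 1 included. Markers of smooth muscle and of the urothelium were brighter in RNA B too, on both arrays for 5 of 6 and for 6 of 10 genes, with median log2 ratios of -0.63 and -0.59. Those 6 urothelial genes were Krt20 and the listed uroplakin genes. The rest of that list did not follow. Krt5 was brighter in RNA A on both arrays, at log2 ratios of 0.26 and 0.67, and Trp63, Cdh1 and Grhl3 turned between arrays. Of 9 markers of the kidney tubule, 5 had the higher signal in RNA B on each array, with a median of -0.45 over the 7 well above background. The part of these cell types in the ratio of Akr1b3 was not tested.

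Of the remaining AKR1B genes, Akr1b8, also called fibroblast growth factor-regulated protein, had small ratios of opposite sign, with signals of 1991 in RNA A against 1801 in RNA B in the female pools, and of 1925 against 2150 in the male pools. This gave log2 ratios of 0.14 and -0.16.

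Akr1b7 and Akr1c18 were brighter in RNA A on the female array and brighter in RNA B on the male array. Akr1b7 was first described as a vas deferens protein and is abundant in the adrenal cortex, where it reduces aldehydes formed during steroid synthesis. Its signals were 227 in RNA A against 200 in RNA B in the female pools, and 115 against 225 in the male pools. The log2 ratios were 0.18 and -0.96, and the spots of the arrays did not overlap, with kept spots from 0.15 to 0.21 on array 1 and from -1.01 to -0.90 on array 2. RNA A on array 2 was the channel that stood apart, at about the level of the intensity threshold, while the other channels lay between 200 and 227.

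Akr1c18 is the hydroxysteroid dehydrogenase that inactivates progesterone. Its signals were 66.5 in RNA A against 47.0 in RNA B in the female pools, and 28.6 against 69.3 in the male pools, all under the intensity threshold of 100 but well above background. These gave log2 ratios of 0.50 for the female and -1.28 for the male pools. Spots ranged from 0.33 to 0.72 on array 1 and from -1.46 to -1.17 on array 2. RNA A on array 2 was again the lowest channel. RNA B was brighter by 1.95-fold for Akr1b7 and by 2.43-fold for Akr1c18 on that array. A gap between the arrays at least as large as that of Akr1b7 was seen in 3.07% of the genes well above background, and one as large as that of Akr1c18 in 0.457%. Each sex had 1 array, and the dyes were exchanged between the arrays, so sex, dye and pool cannot be told apart.

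Most markers on some lists of other tissues also had the lower ratio on array 2, but not all of them turned between the arrays. Of 9 listed markers of the adrenal cortex and gonadal steroid cells, 8 were measured, all well above background with signals of 8.4 to 131, and none was at 0. The list's median log2 ratio went from 0.13 in the female to -0.69 in the male pools, against -0.0004 and 0.03 over all genes well above background. Of the 8 genes, 7 had the lower ratio on array 2, and the share of all genes that did so was not counted. Their summed signal was 369 in RNA A against 331 in RNA B in the female pools, and 270 against 460 in the male pools. Nr5a1, the transcription factor that drives steroid synthesis genes, had signals of 101 against 84.1 in the female and of 66.8 against 131 in the male pools, and Cyp11b1, an enzyme of corticosteroid synthesis in the adrenal cortex, of 17.2 against 20.6 in the female and of 8.4 against 35.2 in the male pools. RNA B was the brighter on both arrays for 2 of the 8 genes, Cyp11b1 and Hsd3b1, so these did not turn. Cyp17a1, which acts in gonadal and adrenal steroid synthesis, was nearly alike on the arrays, at log2 ratios of 0.02 and 0.11.

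Liver markers also had the lower ratio on array 2, in 8 of 9 genes. The summed signal of the 9 liver markers was 11542 in RNA A against 10310 in RNA B in the female pools, and 4198 against 9737 in the male pools, with medians of the log2 ratio of 0.12 and -1.12. Alb, the gene of serum albumin, had signals of 2598 against 2024 in the female and of 690 against 1708 in the male pools. Among 7 markers of the mesonephric duct, vas deferens and epididymis, 4 were well above background with medians of the log2 ratio over those 4 of 0.16 and -0.16. Of all 7, 3 had the lower ratio on array 2. Of 9 markers of the kidney tubule, 7 had the lower ratio on array 2. The summed signal was 2927 in RNA A against 2988 in RNA B in the female pools, and 3478 against 4164 in the male pools. Aqp1 made up most of it, at 2508 against 2460 and 3078 against 3599, so the sum hides dimmer markers. Log2 ratios on arrays 1 and 2 were -2.31 and -3.15 for Slc34a1, -0.91 and -1.51 for Slc22a6, and -1.21 and -0.76 for Slc5a2. Their signals were 4.2 to 37.2. Limma called Slc34a1 at an adjusted p of 0.012, but made 0 calls towards RNA B under several alternatives. Aqp2 went the other way, at 0.16 and 0.08. The lower ratio on array 2 was not limited to these lists. It was seen in 5 of 6 markers of mast cells and leukocytes and 4 of 6 of smooth muscle. The counts were 4 of 10 for urothelium, 2 of 4 for endothelium, 1 of 4 for red blood cells and 0 of 4 for nerve and glia. The share over all genes was not counted, and the median log2 ratio of genes well above background was -0.0004 on array 1 and 0.03 on array 2. The part of adrenal, gonadal, liver or kidney RNA in the values of Akr1b7 and Akr1c18 was not tested.

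**Figure D2:**
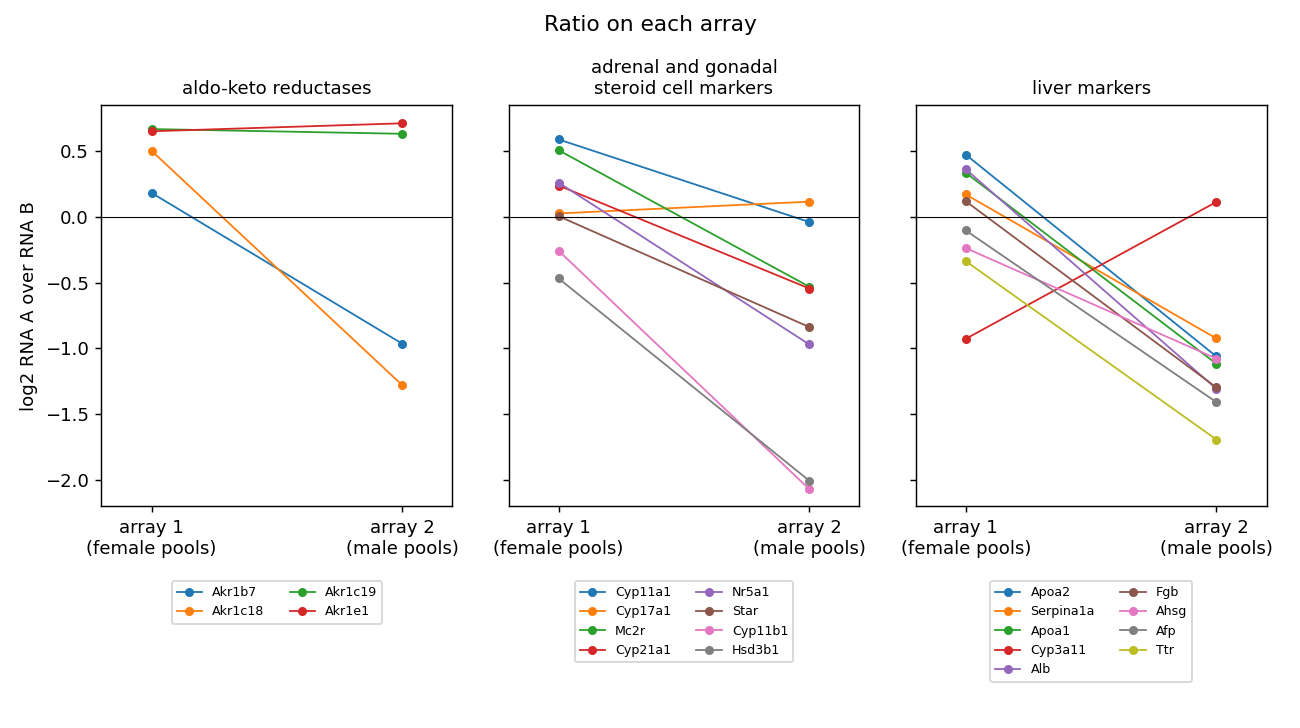
Log2 ratio of RNA A over RNA B on array 1 (female pools) and array 2 (male pools), each line 1 gene, for the aldo-keto reductases past the filter or turning most between arrays (left), for 8 markers of adrenal and gonadal steroid cells (middle) and for 9 liver markers (right). Akr1b7 and Akr1c18 slope down as 7 of 8 steroid cell and 8 of 9 liver markers do, while Akr1c19 and Akr1e1 stay level. The share of all genes that slope down was not counted.

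The mean level over both RNAs was lower on the male than on the female array for Akr1b7 and Akr1c18. This came from RNA A alone, which went from 227 to 115 for Akr1b7 and from 66.5 to 28.6 for Akr1c18. RNA B went up, from 200 to 225 and from 47.0 to 69.3. The lower mean and the turned ratio thus rest on the same channel. After subtracting the median of all genes, the mean log2 signal changed from array 1 to array 2 by -0.48 for Akr1b7 and by -0.41 for Akr1c18, against an SD of 0.29 over all genes well above background. Akr1e1 followed with -0.28, and all other detected members lay between -0.18 and 0.06. These differences rest on 1 array per sex and were not tested.

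**Figure D3:**
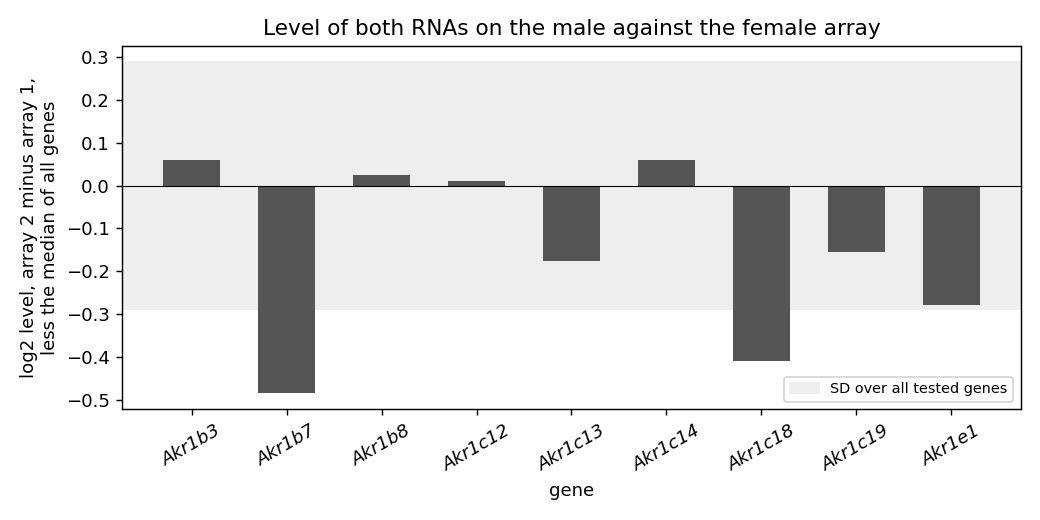
Mean log2 signal of both RNAs on array 2 (male pools) minus array 1 (female pools), less the median of all genes well above background, for the 9 detected aldo-keto reductases, with the SD over all those genes (0.29) as a grey band. Akr1b7 and Akr1c18, in which RNA A alone was lower on array 2, lie below the band and the other genes within it.

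Position in the clusters was compared with the ratios. On chromosome 6 the RefSeq order is Akr1b3, Akr1b8, Akr1b10 and Akr1b7, and the ratio on array 2 was negative in all of these. That of Akr1b8 was small, at -0.16, and all but Akr1b10 were chosen on this contrast. The median over all genes well above background was 0.03 on array 2. The share of them below 0 there was not counted, so nothing is read from the shared sign. Akr1b10, which was not among the chosen genes, had signals of 2884 in RNA A against 2568 in RNA B in the female pools, and of 2556 against 3419 in the male pools. Its log2 ratios were 0.17 and -0.42, a smaller turn than that of Akr1b7. Of all genes well above background, 61% turned between the arrays. On chromosome 13 the order is Akr1c14, Akr1c18, Akr1c13, Akr1c19, Akr1c12, Akr1c6, Akr1c20, Akr1c21 and Akr1e1. Akr1c19 and Akr1e1 are not neighbours there, being separated by Akr1c12 and by Akr1c6, Akr1c20 and Akr1c21, none of which was well above background apart from Akr1c12. Akr1c18 lies between Akr1c14 and Akr1c13, whose ratios stayed above 0 on both arrays.

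**Figure D4:**
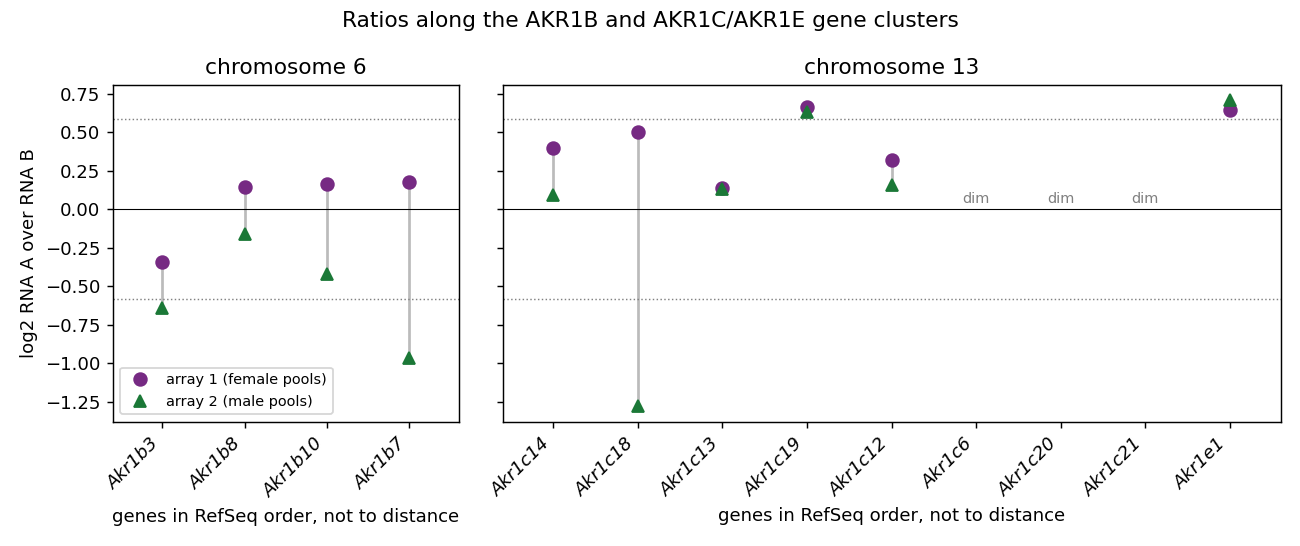
Log2 ratio of RNA A over RNA B on array 1 (circles) and array 2 (triangles) for the AKR1B genes of chromosome 6 and the AKR1C and AKR1E genes of chromosome 13 in RefSeq order, not to distance, with dotted lines at 1.5-fold and genes not well above background marked dim. Akr1c19 and Akr1e1 lie above 1.5-fold on both arrays at separate places of the cluster, and Akr1c18 drops to -1.28 on array 2 between neighbours above 0.

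The windows of 250 bases before the annotated start are given for Akr1c19 and Akr1e1, which passed the filter, and for Akr1b7 and Akr1c18, which turned most between arrays, so that the promoters of genes with like ratios can be compared. They are from RefSeq, read 5′ to 3′ along the gene, and capitals mark matches to the motifs named after them.
Akr1c19 (GRCm38.p6, chr13:4233490-4233739, plus strand): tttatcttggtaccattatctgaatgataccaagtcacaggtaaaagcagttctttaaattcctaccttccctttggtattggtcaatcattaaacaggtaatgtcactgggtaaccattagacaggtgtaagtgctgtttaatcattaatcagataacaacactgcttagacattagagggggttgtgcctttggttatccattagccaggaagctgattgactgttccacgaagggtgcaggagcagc
Akr1e1 (GRCm38.p6, chr13:4609165-4609414, minus strand): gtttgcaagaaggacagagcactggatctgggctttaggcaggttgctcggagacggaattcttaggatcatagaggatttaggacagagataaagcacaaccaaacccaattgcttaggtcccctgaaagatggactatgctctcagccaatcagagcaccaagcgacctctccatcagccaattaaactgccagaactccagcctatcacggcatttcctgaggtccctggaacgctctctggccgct
Akr1b7 (GRCm38.p6, chr6:34412112-34412361, plus strand): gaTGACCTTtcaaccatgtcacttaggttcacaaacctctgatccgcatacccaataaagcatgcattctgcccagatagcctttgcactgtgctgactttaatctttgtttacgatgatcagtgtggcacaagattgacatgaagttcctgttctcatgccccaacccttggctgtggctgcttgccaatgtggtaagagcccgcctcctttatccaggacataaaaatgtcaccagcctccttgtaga
Akr1c18 (GRCm38.p6, chr13:4150647-4150896, minus strand): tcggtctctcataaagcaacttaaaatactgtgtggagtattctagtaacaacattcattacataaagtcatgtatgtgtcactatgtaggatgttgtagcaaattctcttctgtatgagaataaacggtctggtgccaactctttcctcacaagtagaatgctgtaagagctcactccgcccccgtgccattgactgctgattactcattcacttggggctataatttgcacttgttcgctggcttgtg
Of the 10 genes, 8 had such a window, all but Akr1b3 and Akr1c20. The motifs searched on both strands were the direct repeat of AGGTCA with 1 base between the copies, which PPARG binds with its RXR partner, a single copy of that repeat, AGGTCA, its extended form AAGGTCA, which contains it and is known from NR5A1, TGACNNNGC, the core of the antioxidant response element, TGACGTCA, the cAMP response element, and TATAAA. The direct repeat was in 0 of 8 windows and in 0.037% of 27025 mouse windows of the same length. AGGTCA was in 1 of 8, against 13.8% of all windows, and AAGGTCA in the same one, against 4.05%: both matched on the reverse strand of Akr1b7, at 248 to 242 bases before the start. TGACNNNGC was in none of the 8 (10.1% of all windows) and TGACGTCA in none (1.62%). TATAAA matched on the reverse strand of Akr1b8 (12.97% of all windows). A match is a description of these letters and not a site, and these windows leave out all sequence farther away.

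Akr1c12 and Akr1c13, whose small ratios ran the same way, shared the longest run of identical bases among the windows, 75 bases, against 15 bases or fewer for every other pair. It begins 152 bases before the start of Akr1c12 (GRCm38.p6, chr13:4279477-4279551, minus strand) and 155 bases before that of Akr1c13 (chr13:4191032-4191106, plus strand).
Akr1c12 and Akr1c13: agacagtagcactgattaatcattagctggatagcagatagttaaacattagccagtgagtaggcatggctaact
Their probes shared no run over 9 bases, and whether a probe also binds the neighbour's transcript was not tested.

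The rest of the family and the pathways around it were read from lists. Among 9 other measured genes of the family, 4 were well above background, and none passed the fold filter or was called by limma (adjusted p under 0.05, Benjamini-Hochberg over 21429 genes, of which 0.126% were called towards RNA A and 0.187% towards RNA B). None of them had an unadjusted p under 0.05. Akr1a1, the general aldehyde reductase, had signals of 30620 against 31589 in the female and of 34765 against 34784 in the male pools. Its log2 ratios were -0.04 and 0.00. Akr7a5, an aflatoxin aldehyde reductase, had log2 ratios of 0.16 and -0.01.

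Other carbonyl reductases, of the short-chain and quinone type, held 14 of 15 genes well above background, of which 0 passed the filter or limma and 1 had an unadjusted limma p under 0.05. The highest mean log2 ratios were those of Cbr3, a carbonyl reductase (0.53 ± 0.25, SD, n = 2), and of Nqo2, a quinone reductase (0.22 ± 0.15), and the lowest those of Ptgr1, which reduces prostaglandins and leukotrienes (-0.26 ± 0.03), and of Cbr2 (-0.19 ± 0.55). The median of this list was 0.06.

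Of 24 aldehyde and alcohol dehydrogenases, which oxidise what aldo-keto reductases reduce, 23 were well above background and 0 passed the filter or limma, with 4 at an unadjusted limma p under 0.05. Among those with a signal of at least 100, Aldh3b2 (-0.65 ± 0.14, SD, n = 2) and Aldh1a7 (-0.54 ± 0.00) were lowest, and Aldh1a3 (0.22 ± 0.49) and Aldh1a1 (0.13 ± 0.21), enzymes of retinoic acid synthesis, were highest. Aldh3a1, an aldehyde dehydrogenase that is no extreme of its list and is named for its turn between the arrays after its values were seen, had signals of 2618 in RNA A against 1769 in RNA B in the female pools, and of 1265 against 2701 in the male pools.

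The polyol and osmolyte genes around aldose reductase showed no gene past the filter or limma, and 0 at an unadjusted limma p under 0.05, among 10 well above background. Slc2a1, a glucose transporter, averaged a log2 ratio of 0.18 ± 0.38 (SD, n = 2) and the hexokinase gene Hk2 one of 0.15 ± 0.49, while Hk1 had -0.08 ± 0.04 and Nfat5, the factor that induces aldose reductase under osmotic stress, -0.27 ± 0.35. Sord, which converts sorbitol to fructose in the step after aldose reductase, had signals of 1531 in RNA A against 1745 in RNA B in the female pools, and of 1989 against 1644 in the male pools. Its direction turned between the arrays, which that of Akr1b3 did not.

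NRF2 is the factor that drives many aldo-keto reductase genes under oxidative stress. Of its 21 measured response genes, all well above background, 0 passed the filter or limma and 2 had an unadjusted limma p under 0.05. Among those with a signal of at least 100, Hmox1, heme oxygenase (0.27 ± 0.15, SD, n = 2), and Prdx1, a peroxiredoxin (0.18 ± 0.02), were highest. Osgin1 (-0.74 ± 0.75) and Nfe2l2, which encodes NRF2 itself (-0.38 ± 0.02), were lowest. The median of the list was -0.08.

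All 18 prostaglandin genes were well above background, and 0 passed the filter or limma, nor did any reach an unadjusted limma p under 0.05. Mean log2 ratios lay between -0.13 ± 0.07 (SD, n = 2) for Ptges, a prostaglandin E synthase, and 0.32 ± 0.08 for Tbxas1, the thromboxane synthase, among genes with a signal of at least 100. Ptgs1, a cyclooxygenase, had 0.24 ± 0.30 and Ptges2 -0.10 ± 0.12.

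Steroid-converting enzymes outside the family were the list with genes past the filter, 2 of 18, both brighter in RNA B. Hsd17b2, which inactivates oestradiol and testosterone, had signals of 112 in RNA A against 485 in RNA B in the female pools, and of 112 against 533 in the male pools. Its log2 ratio was -2.19 ± 0.10 (SD, n = 2), and limma called it at an adjusted p of 0.012. Limma made 0 calls towards RNA B, this gene included, with normexp and loess, with each array centred on its median, from the authors' deposited table, without the filter on dim probes, and without the replicate block, where 274 to 441 genes had an unadjusted p under 0.05 in that direction. Srd5a1, the steroid reductase that makes dihydrotestosterone, had signals of 2799 against 5877 in the female and of 2961 against 5783 in the male pools. Its log2 ratio was -1.02 ± 0.07 (SD, n = 2), at a limma adjusted p of 0.12. Neither Hsd17b2 nor Srd5a1 turned between the arrays as Akr1b7 and Akr1c18 did.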

How the data were processed

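The authors hybridised labelled cRNA of pooled ureters to 2 dual-colour Agilent arrays, both on the same slide and from the same scan. The deposited signal intensity of each spot had, per the file headers, been background-subtracted, given surrogate values near background and dye-normalised by LOWESS in Feature Extraction 10.7.3.1. The authors' log10 ratio of the red and green dyes served to check the channels. Their table of signed fold changes, a deposited score without a stated direction, was an alternative. The number of arrays, not depth, limits the precision.

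The members and lists were chosen with earlier results of these data known. Titles give E16.5, the stage label of the second channel E14.5, and the former was used. After control and outlier spots had been removed, the log2 signals of a probe's spots were averaged. Probes were named through RefSeq (GRCm38.p6) for 28328 of 39429 probes and otherwise as in the file, and the probe brightest on average over the 4 channels stood for its gene. Named are all members, of each list the genes past the filter or limma, or else the 2 highest and 2 lowest mean ratios at a signal of at least 100, and marker genes. limma 3.58.1 (R 4.3.3; lmFit, eBayes, Benjamini-Hochberg) was run on the ratios of 21429 genes and checked, with the filter, on simulated data. The pools are 1 per sex and genotype, so p-values measure the spread between 2 arrays. Alternatives were loess on the processed signals, normexp (offset 50) and loess on the mean signals, centring, the authors' table, other thresholds and probe rules, leaving out an array, and separate channels. Plots were drawn with matplotlib 3.10.9.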

Additional observations from a re-analysis of the deposited data

Results flagged for a closer look

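Akr1b7 and Akr1c18 moved in opposite directions on the female and the male array. The log2 ratio of RNA A over RNA B on array 1 minus that on array 2 was 1.14 for Akr1b7 and 1.78 for Akr1c18. With 1 array per sex, the difference was not tested.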

How the results depend on the processing

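The number of aldo-keto reductases past the filter, 2, was 1 with normexp background correction and loess (Akr1c19). It was 1 with only probes that kept every spot on both arrays (Akr1e1), where Akr1c19 had no value. It was 0 at 2-fold, and between 2 and 4 when 1 array was left out, since Akr1b3 and Akr1b7 passed on array 2 alone. The number stayed at 2, the same genes, under the other 8 alternatives. Over all genes, the filter counted 47 towards RNA A and 69 towards RNA B; these became 193 and 239 with no filter on dim probes, 128 and 148 with well above background in place of the intensity threshold, 19 and 29 at 2-fold, 28 towards RNA A at an intensity threshold of 200, and 301 to 321 and 488 to 637 with 1 array left out. limma's 27 and 40 calls became 1 and 0 with normexp, 8 and 20 with loess on the processed signals, 1 and 0 with median centring, and 0 and 0 both with the authors' table and with no filter on dim probes (262 and 305, and 220 and 274, at an unadjusted p under 0.05). With no replicate block, as 4 separate channels, limma made 1 and 0 calls. The causes were not tested. limma was not run on a single array, which leaves no residual degrees of freedom, and a slide block was not run because there was 1 slide. The mean ratios of Akr1b7, Akr1b8 and Akr1c18 changed sign between the arrays taken alone; those of the other members well above background kept theirs under every alternative that could give a value. Signals near 100 or below, as for Akr1c12 and Akr1c18, are limited by background.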
